A study of Drosophila melanogaster with 8 samples.

Results

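The nuclear genes of Drosophila melanogaster that encode proteins of the mitochondrial ribosome were followed in the heads of males after a convulsant and then an anticonvulsant. The set was taken by name: every gene whose symbol in the platform annotation starts with mRpL (large subunit) or mRpS (small subunit). It holds 48 of the 6793 genes named by a single symbol, 29 of the large subunit and 19 of the small subunit. The 48 genes were represented by 108 spots, which formed 54 side-by-side pairs, and 6 genes had a second clone (mRpL9, mRpL10, mRpL12, mRpL50, mRpS11 and mRpS31).

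The mitochondrial ribosome descends from a bacterial ribosome and makes the few subunits of the respiratory chain and ATP synthase that the mitochondrial genome encodes. All of its proteins are encoded in the nucleus, made in the cytosol and imported. Some correspond to bacterial ribosomal proteins and form the core around the ribosomal RNA, and others exist only in mitochondria and cover its surface. In flies, mutation of tko, a small subunit protein named outside the mRp pattern and not analysed here, gives seizure-like paralysis after mechanical shock, which links this ribosome to seizure models. Another 25 RefSeq genes of the name pattern were not analysed here.

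Unmated Oregon-R wild type males, 3 to 4 days old at the start, received pentylenetetrazole (PTZ, a convulsant that blocks GABA receptors) at 8 mg/ml in food for 7 days. They then received gabapentin (an anticonvulsant that binds a subunit of voltage-gated calcium channels) at 16 mg/ml for 3 days, and heads were taken at day 10. A second group went on to normal food for 4 more days, and heads were taken at day 14. Control flies were kept on normal food in parallel and moved to fresh vials on the same days, with separate controls for each day. Vials held 30 flies at the start, and RNA came from pooled heads of 4 vials, so a value is an average over a pool and over all head tissue. Each of 4 biological replicates per day was 1 spotted cDNA array comparing a treated pool with its control pool, with treated RNA in Cy5 in replicates 1 and 2 and in Cy3 in replicates 3 and 4. For replicates 1, 2 and 3 of day 14, a line of the labels names ETH, with no explanation, in place of gabapentin for those 3 days, while their titles name gabapentin.

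All values below are log2 ratios of treated over control signal, with the median of each array set at 0 and the swapped arrays turned, so a positive value is more signal in treated flies. The labels do not state which dye is the numerator or whether swapped arrays had been turned before deposit, and Cy5 over Cy3 was assumed. Before turning, arrays of opposite dye orientation on the same day correlated at -0.05 to 0.34 at day 10 and at -0.35 to 0.22 at day 14, over 3048 features. At day 10, 506 of 11312 genes and features had an unadjusted limma p under 0.05 with turning and 2554 without. Signal that follows the dye and signs turned before deposit cannot be told apart here, so for the 8 genes described array by array, means without turning are given beside the main ones. Ratios also drifted along the order of the features, with medians of 48 equal runs between -1.76 and -0.13 on replicate 1 of day 10. Means called by position below, given for the same genes, had the medians of these 48 runs removed. The medians of short runs of 24 features, each including the gene's own spots, were then also removed. Arrays held 12929 to 19719 values at day 10 and 6628 to 14095 at day 14, of 27648 features. Replicate 1 of day 14 stood apart, with the fewest values (6628), only 19 of the 48 genes measured, and a deposited correlation of -0.06 with replicate 2 of the same orientation. Deposited medians of the arrays ran from -0.83 to 0.29.

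Of the 48 genes, 31 had values on at least 3 of the 4 arrays at day 10 and 23 at day 14, which was the condition for a test. There were 20 tested on both days (10 of each subunit), 11 at day 10 only, and mRpL20, mRpS18B and mRpS26 at day 14 only. The other 14 were tested on neither day, and mRpL13 had no value on any array. Values on all 8 arrays were available for 9 genes. The colour map of array values shows this pattern of measured and missing spots.

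**Figure D1:**
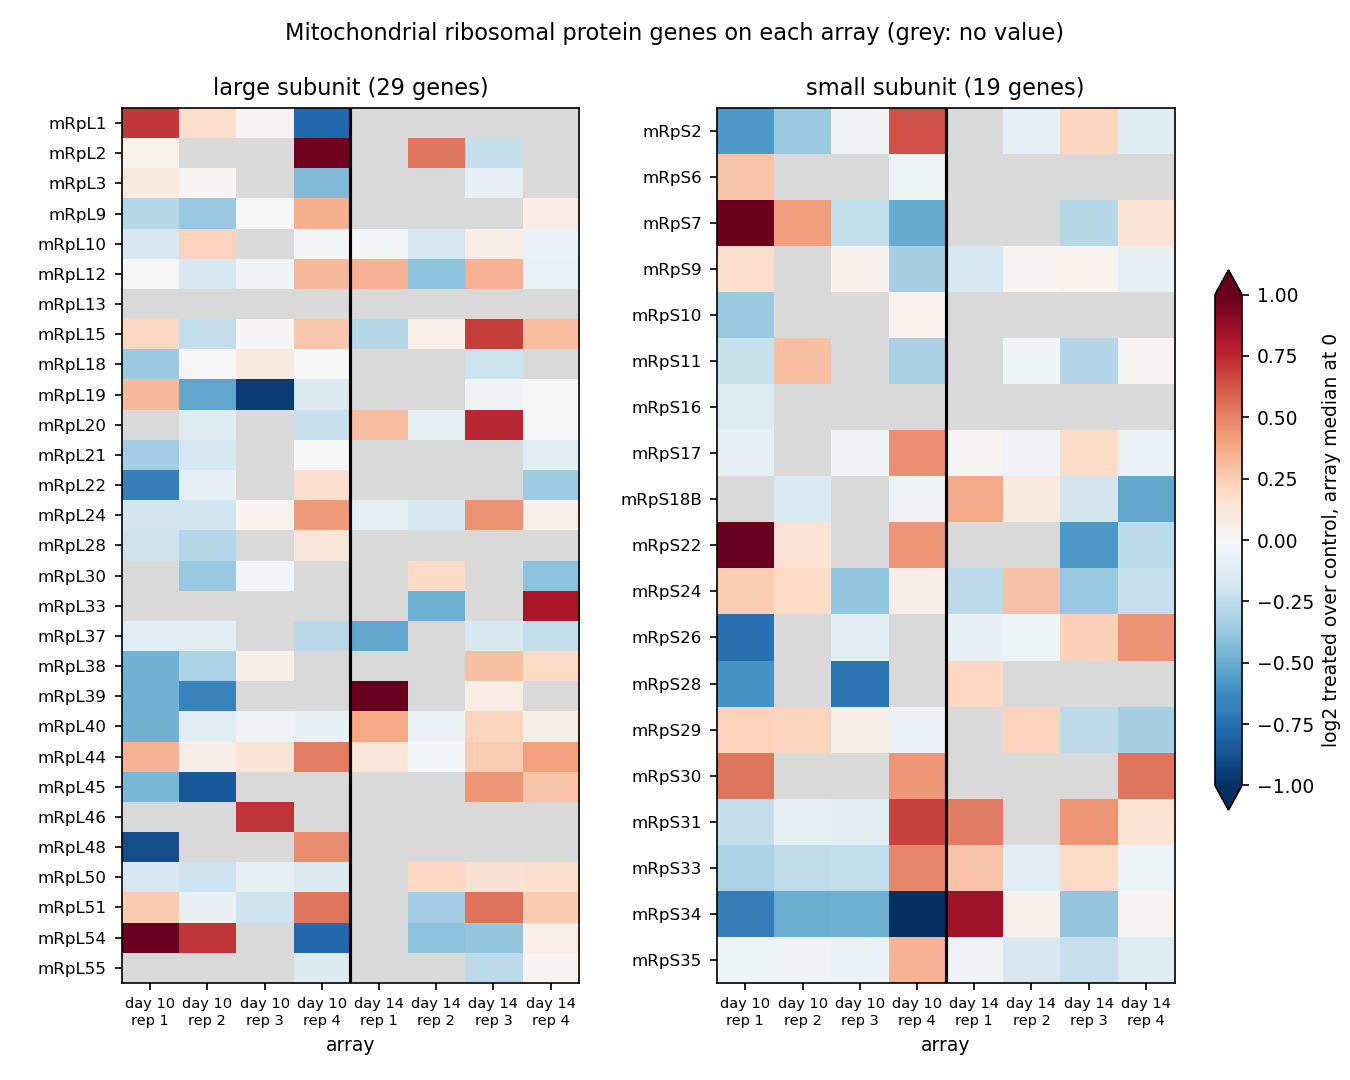
Log2 ratio of treated over control for each of the 48 genes (rows, by subunit) on each of the 8 arrays (columns, 4 per day), with the array median at 0, red for more and blue for less signal in treated flies, and grey for no value. Most cells are pale and few rows keep 1 colour, mRpS34 at day 10 being the darkest of those measured on 4 arrays.

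At day 10, when the flies had just finished the second drug, none of the 31 genes tested passed an adjusted p of 0.05 (limma, Benjamini-Hochberg over 11312 genes and features, adjusted p of 0.992 to 0.998). The percentage called over all genes and features was also 0. At an unadjusted limma p under 0.05 there were 2 of the 31, mRpS34 with less signal and mRpS22 with more, against 4.47% of everything tested. The means of the 31 genes lay between -0.67 and 0.66 with a median of -0.04, and 15 were above 0 and 16 below. The median over all genes and features was 0.03, with 55.4% above 0. The median standard error of a gene was 0.18, and for 28 of the 31 (90.3%) the 95% interval stayed inside a 2-fold change in either direction, as it did for 83.6% of all genes and features.

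mRpS34, a mitochondrion-specific protein that mammals need for a stable small subunit, had the lowest mean of the set at day 10. Its array values were -0.68, -0.50, -0.49 and -1.02 in replicates 1 to 4. All 4 arrays were below 0 and none came near it. The mean was -0.67 ± 0.20 (SE), a level 1.59-fold lower in treated heads with a 95% interval of -1.11 to -0.23, and limma gave an unadjusted p of 0.00703 and an adjusted p of 0.992. The sign of this mean depends on turning the swapped arrays, since without turning it was 0.08. With medians removed by position it was -0.61.

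mRpS22, another mitochondrion-specific small subunit protein, whose human counterpart is mutated in a mitochondrial disease, was singled out after its values were seen. It gave 1.40, 0.14 and 0.44 in replicates 1, 2 and 4 of day 10 and had no value in replicate 3. The 3 values were all above 0, and replicate 1 was far above the other two. The mean of 0.66 ± 0.27 (SE) had an unadjusted limma p of 0.0450 and an adjusted p of 0.992, and without replicate 1 it was 0.29. It was 0.37 without turning and 0.49 by position. At day 14 only replicates 3 and 4, both with treated RNA in Cy3, measured it, at -0.57 and -0.26, too few for a test. Without turning, both of these values lie above 0.

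In the large subunit, mRpL44, which carries a fold related to RNase III, gave 0.35, 0.06, 0.13 and 0.51 at day 10. All 4 arrays were above 0, with a mean of 0.26 ± 0.14 (SE) and no call (limma adjusted p 0.992). At day 14 its values were 0.12, -0.02, 0.25 and 0.41, above 0 on 3 of 4 arrays, with a mean of 0.19 ± 0.13 (SE). Without turning, both means were below 0, at -0.06 and -0.14. By position they were 0.16 at day 10 and near 0 at day 14. With only the medians of the 48 runs removed they were 0.32 and 0.22.

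mRpL40, mRpL37 and mRpL50, all mitochondrion-specific, were a little below 0 at day 10. mRpL40 gave -0.47, -0.10, -0.04 and -0.08, where replicate 1 was far below the other three. mRpL37 gave -0.11, -0.11 and -0.28 in replicates 1, 2 and 4. mRpL50 gave -0.16, -0.21, -0.10 and -0.14, the smallest spread among the genes at day 10. The means were -0.17 ± 0.14 (SE) for mRpL40, -0.16 ± 0.16 (SE) for mRpL37 and -0.15 ± 0.12 (SE) for mRpL50, and each interval included 0. Without replicate 1 the mean of mRpL40 was -0.07. Without turning the 3 means were -0.12, 0.02 and -0.03, and by position -0.17, -0.10 and -0.10. The mean of mRpL50 combines 2 clones that disagree. The first read -0.66, -0.64 and -0.21 on replicates 1, 2 and 4, and the second read 0.33, 0.22, -0.10 and -0.07 on replicates 1 to 4, with a mean of 0.10.

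mRpL54, a mitochondrion-specific large subunit protein, had the widest spread. Its day 10 values were 1.75 and 0.71 on the Cy5 arrays of replicates 1 and 2 and -0.78 on the Cy3 array of replicate 4. The sign followed the dye of the treated RNA, and the mean of 0.56 ± 0.41 (SE) became -0.04 without replicate 1, 1.08 without turning and 0.18 by position. mRpS7, the counterpart of a bacterial protein that organises the head of the small subunit, also split by dye at day 10. It gave 0.98 and 0.42 in Cy5 and -0.24 and -0.50 in Cy3. Its mean of 0.16 was 0.54 without turning and 0.07 by position. The signs of mRpL9 and mRpL24 split by dye as well, with means of -0.33 and -0.19 in Cy5 and 0.18 and 0.23 in Cy3. Those of mRpL3, mRpL21, mRpL22, mRpL28 and mRpL38, measured on 3 arrays at day 10, did so too. mRpS31, as the mean of its 2 clones, gave -0.24, -0.08, -0.11 and 0.68 at day 10, where replicate 4 alone was above 0. Its mean was 0.06 ± 0.18 (SE), and -0.22 without turning and 0.03 by position. The clones disagreed on replicates 1 and 3. The first read 0.10, -0.08, 0.02 and 0.365 on replicates 1 to 4, and the second read -0.58, -0.08, -0.24 and 0.99.

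**Figure D2:**
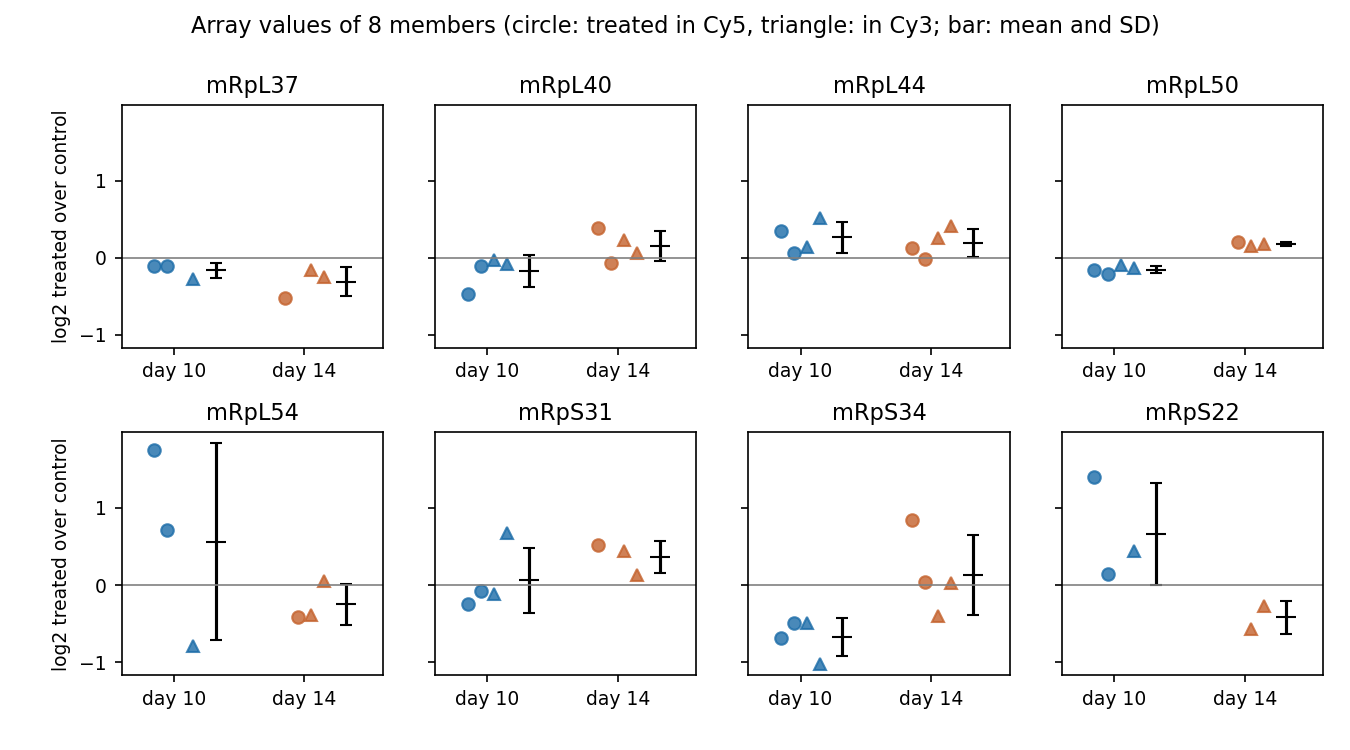
Log2 ratio of treated over control on each array for 8 genes at day 10 (blue) and day 14 (orange), circles for treated RNA in Cy5 and triangles for Cy3, with the mean and SD of the arrays beside them. mRpS34 lies below 0 and mRpL44 above 0 on all 4 arrays of day 10, mRpL50 averages 2 clones at day 10 and holds 1 at day 14, and mRpL54 spans 1.75 to -0.78 at day 10.

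The remaining large subunit genes tested at day 10 had means between -0.32 and 0.13. Among counterparts of bacterial proteins, mRpL19 had the lowest mean, -0.32 ± 0.21 (SE), from 0.33, -0.52, -0.95 and -0.15. Without turning the mean of mRpL19 was above 0, at 0.23, and by position it was -0.12. The proteins at the base and tip of the stalk that recruits translation factors, mRpL10 and mRpL12, were at 0.01 and 0.03. mRpL1, of the opposite stalk where spent tRNA leaves, had a mean of 0.03 from values as far apart as 0.71 and -0.79. mRpL3, near the catalytic centre, was at -0.11, and mRpL22 and mRpL24, which line the exit tunnel, were at -0.20 and 0.02. mRpL9, mRpL15, mRpL18, mRpL21 and mRpL28 had means of -0.08, 0.06, -0.07, -0.17 and -0.13. The mitochondrion-specific mRpL38 and mRpL51 were at -0.25 and 0.13. All of these intervals included 0.

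The remaining small subunit genes tested at day 10 lay closer together, between -0.09 and 0.16. mRpS7 had a mean of 0.16, and mRpS2, mRpS9 and mRpS11, whose bacterial counterparts lie in the body and head around the messenger RNA path, had means of -0.09, -0.04 and -0.08. mRpS17 and mRpS24 were at 0.11 and 0.03. The GTP-binding protein mRpS29 was at 0.12, and the mitochondrion-specific mRpS33 and mRpS35 were at -0.08 and 0.05. None of these differed from 0 by more than the spread between arrays.

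At day 14, after 4 days on normal food, none of the 23 genes tested passed (limma adjusted p of 0.999 throughout, over 6142 genes and features, 0% called overall). At an unadjusted p under 0.05 there were 0 of 23, against 3.47% of everything tested. Means ran from -0.31 to 0.36 with a median of 0.05, 13 above 0 and 10 below, and the median over all genes and features was 0.01. The 95% interval stayed inside a 2-fold change for 22 of the 23 genes (95.7%), as for 96.5% of all genes and features. Without replicate 1, the array that stood apart, the median of the 23 was -0.002, and 0 genes passed.

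The outer values of day 14 belonged to mRpL37 and mRpS31. mRpL37 gave -0.52, -0.16 and -0.24 in replicates 1, 3 and 4, below 0 on each array, with a mean of -0.31 ± 0.15 (SE). mRpS31 gave 0.52, 0.44 and 0.14 in the same replicates, above 0 on each array, with a mean of 0.36 ± 0.20 (SE). Both had limma adjusted p of 0.999. Without replicate 1 the means were -0.20 for mRpL37 and 0.29 for mRpS31. Without turning they were -0.04 and -0.02, and by position -0.04 and 0.06. With only the medians of the 48 runs removed they were -0.32 and 0.25.

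mRpS34, the lowest gene of day 10, gave 0.84, 0.04, -0.39 and 0.03 at day 14. Its arrays fell on both sides of 0, and the mean of 0.13 ± 0.19 (SE) rested on replicate 1, without which it was -0.11. It was 0.31 without turning and -0.14 by position. mRpL50 gave 0.21, 0.15 and 0.17 in replicates 2 to 4, all above 0 and all from its second clone, for a mean of 0.18 ± 0.13 (SE). mRpL40 gave 0.39, -0.06, 0.22 and 0.06, for a mean of 0.15 ± 0.13 (SE), and mRpL54 gave -0.41, -0.39 and 0.05, for a mean of -0.25 ± 0.40 (SE). Without turning, the means of mRpL50, mRpL40 and mRpL54 were -0.04, 0.01 and -0.02, and by position 0.02, 0.18 and -0.14.

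Of the other large subunit genes tested at day 14, mRpL20 and mRpL15 had the highest means, 0.24 and 0.19, each with a high value in replicate 3 (0.75 and 0.69). mRpL51, mRpL24, mRpL12 and mRpL10 were at 0.15, 0.06, 0.05 and -0.04. In the small subunit, mRpS26, mRpS33 and mRpS17 were above 0 at 0.14, 0.08 and 0.03. mRpS24, mRpS35, mRpS29 and mRpS11 were below 0 at -0.14, -0.14, -0.12 and -0.11, and mRpS18B, mRpS9 and mRpS2 were at -0.06, -0.05 and -0.002. mRpS35 was low on each of the 4 arrays, between -0.23 and -0.04.

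Genes that kept 1 sign on every array that measured them numbered 6 of 31 at day 10 (19.4%): mRpL37, mRpL40, mRpL44, mRpL50, mRpS22 and mRpS34. At day 14 there were 4 of 23 (17.4%): mRpL37, mRpL50, mRpS31 and mRpS35. For mRpL50 this holds at day 10 for the mean of its clones and not for each clone. The same shares over all genes and features were 12.95% and 22.97%. Only 9 genes had values on all 8 arrays, and none of these kept 1 sign on all 8. mRpL37 was below 0 on each of the 3 arrays that measured it at day 10 and the 3 at day 14. Without turning its means were 0.02 and -0.04.

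The 2 subunits were then set against each other, a comparison within each array that a shift of the whole array does not change, though removal of medians by position can. At day 10 the median of the large subunit genes minus that of the small subunit genes was -0.07, -0.12, 0.12 and -0.05 on replicates 1 to 4, a mean of -0.03 ± 0.10 (SD, n = 4). At day 14 it was 0.004, -0.06, 0.36 and 0.12, a mean of 0.11 ± 0.18 (SD, n = 4). On both days the mean was smaller than the spread between arrays, and the sign was mixed. The day 14 value was set mostly by replicate 3, without which it was 0.02, and its sign turned without turning the swapped arrays (-0.13) and by position (-0.02). With the medians of 48 runs of spots removed it was 0.05 at day 14 and -0.11 at day 10.

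By gene, 8 of 19 large subunit genes were above 0 at day 10, with a median of -0.08, and 7 of 12 small subunit genes, with a median of 0.04. At day 14 the counts were 8 of 11 for the large subunit, with a median of 0.15, and 5 of 12 for the small subunit, with a median of -0.03. The genes tested differed between the days, so these counts and medians cannot be read as a change. Over the 10 large subunit genes tested on both days, the median difference of day 14 minus day 10 was 0.02, with 6 above 0. For the 10 of the small subunit it was -0.02, with 4 above 0. None of these genes was called in either subunit on either day. mRpS30 is counted with the small subunit by its symbol, although its mammalian counterpart sits in the large subunit, and it was below the filter.

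**Figure D3:**
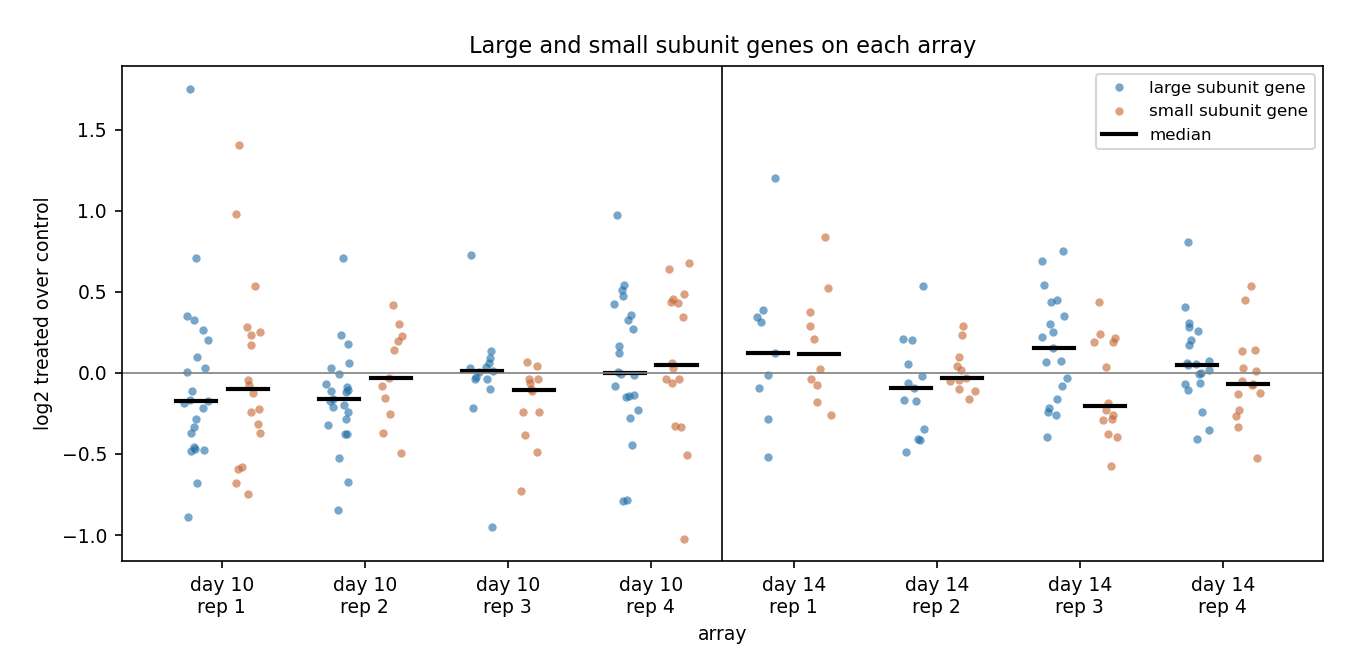
Log2 ratio of treated over control of each large (blue) and small (orange) subunit gene on each array, with the median of each subunit as a black bar. The medians of both subunits stay near 0 beside the spread of single genes, and the widest gap between them is on replicate 3 of day 14, at 0.36.

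Across arrays the median of all measured genes of the set was -0.16, -0.11, -0.04 and 0.02 at day 10, with 41, 34, 26 and 38 genes measured. At day 14 it was 0.12, -0.05, 0.06 and 0.01, with 19, 24, 33 and 35 genes measured. The array medians lay on both sides of 0 on each day, and those of the 2 days overlapped.

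Grouped by origin, 28 genes correspond to bacterial proteins and 20 are specific to mitochondria. The bacterial-type genes had a median of -0.06 at day 10 (8 of 18 above 0) and -0.002 at day 14 (5 of 11 above 0). The mitochondrion-specific genes had a median of 0.05 at day 10 (7 of 13 above 0) and 0.13 at day 14 (8 of 12 above 0). Both genes with an unadjusted limma p under 0.05 at day 10, mRpS34 and mRpS22, were mitochondrion-specific. So were the genes farthest from 0 at day 14, mRpL37 and mRpS31. Their day 14 means were -0.04 and 0.06 by position and -0.04 and -0.02 without turning. Without turning the day 10 mean of mRpS34 was 0.08. These genes were picked by their values, the classes were assigned with earlier results known, and a difference between classes was not tested.

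Whether the ratio differed between day 14 and day 10 was tested in the 20 genes with enough arrays on both. None passed (limma adjusted p of 1.00 after rounding, over 5187 genes and features, 0% called overall), and 1 of 20, mRpS34, had an unadjusted p under 0.05, against 1.72% of everything tested. Differences of day 14 minus day 10 ran from -0.81 to 0.80 with a median of 0.005, and 10 lay above 0 and 10 below. For mRpS34 the difference was 0.80 ± 0.27 (SE), with an unadjusted limma p of 0.0145. It was 0.56 without replicate 1 of day 14, 0.23 without turning and 0.47 by position. For mRpL54 it was -0.81 ± 0.57 (SE), and -0.21 without replicate 1 of day 10, -1.11 without turning and -0.32 by position.

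mRpL40 had a mean below 0 at day 10 and above 0 at day 14, with a difference of 0.32 ± 0.19 (SE) and no call, which was 0.13 without turning and 0.35 by position. For mRpL50 the difference was 0.33 ± 0.18 (SE), also without a call, but it sets a mean of 2 clones at day 10 against 1 clone at day 14. On the clone measured on both days, an alternative chosen after seeing the data, the means were 0.10 and 0.18, the arrays of the days overlapped and the difference was 0.08. The difference of 0.33, from the mean of clones at day 10, was 0.12 by position and near 0 without turning. Over the 20 genes the day 10 and day 14 means had a Pearson correlation of -0.19 and a Spearman correlation of 0.02, and 9 genes had opposite signs. These are descriptions across genes on shared arrays. Without mRpS34 the Pearson value was -0.12, and over all 2166 named genes tested on both days it was 0.18.

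**Figure D4:**
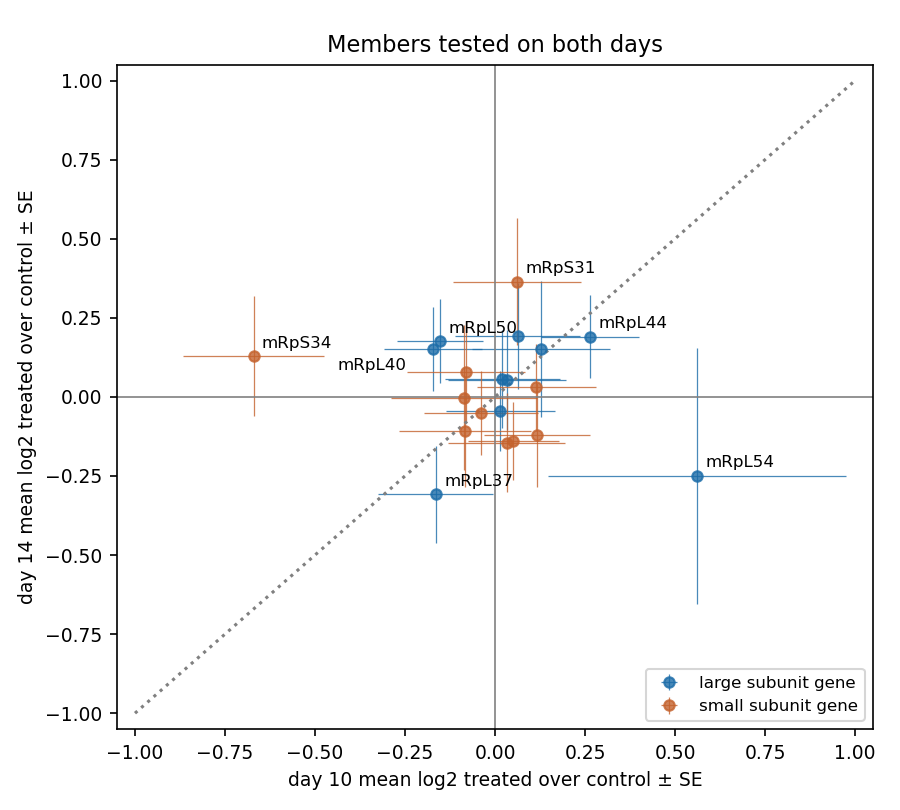
Mean log2 ratio of treated over control at day 10 (x axis) and day 14 (y axis) for the 20 genes tested on both days, with standard errors, coloured by subunit, and the dotted line of equal values. Most genes crowd within 0.3 of 0 on both axes with errors that include 0, and mRpS34 (-0.67 at day 10) and mRpL54 (0.56 at day 10) lie farthest out.

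The 14 genes tested on neither day were measured on few arrays. mRpL45, which in mammals anchors the ribosome to the inner membrane, gave -0.46 and -0.84 on replicates 1 and 2 of day 10 and 0.44 and 0.28 on replicates 3 and 4 of day 14. mRpL39, related in sequence to threonyl-tRNA synthetases, gave -0.48 and -0.67 at day 10 and 1.20 and 0.07 at day 14. Both lay below 0 on the Cy5 arrays of day 10 and above 0 at day 14. The day 14 arrays of mRpL45 were all Cy3, so day and dye cannot be told apart for it. Without turning, its day 14 values also lie below 0. The 1.20 of mRpL39 came from replicate 1 of day 14, the array that stood apart. mRpS30 gave 0.54 and 0.43 at day 10 and 0.53 at day 14, above 0 on the 3 arrays that measured it. mRpS28 gave -0.59 and -0.73 at day 10, and 0.21 on replicate 1 of day 14 from spots 2.55 apart. mRpL2 gave 0.03 and 0.98 at day 10 and 0.54 and -0.24 at day 14, and mRpL33 gave -0.48 and 0.80 at day 14. The others, mRpL30, mRpL46, mRpL48, mRpL55, mRpS6, mRpS10 and mRpS16, had values between -0.89 and 0.73 on 1 to 4 arrays each.

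Paired spots gave a measure of error within an array. Over 271 pair values of the set the median absolute difference was 0.16, with a Pearson correlation of 0.66, and by array the correlation ran from 0.24 on replicate 1 of day 14 to 0.76 on replicate 1 of day 10. The SD of a gene over the arrays of a day had a median of 0.29 at day 10 and 0.20 at day 14. For genes with a second clone, 15 of 22 values had the same sign in both clones, with a median absolute difference of 0.25 and a largest of 0.99. The mean of a gene was nearer to 0 than that median SD for 27 of 31 genes at day 10 and for 19 of 23 at day 14.

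Of the 48 genes, 25 overlap another annotated gene in the RefSeq table, and a cDNA spot cannot separate transcripts that share sequence. Whether the spotted clones reach into the overlaps was not examined. They include mRpS34, which overlaps Golgin104, mRpL50, which overlaps Neos, mRpL44, which overlaps POLDIP2, and mRpS22, which overlaps Boh1. Golgin104 had its own spots and a mean of -0.06 ± 0.17 (SE) at day 10, beside -0.67 for mRpS34. Neos and POLDIP2 were at 0.12 ± 0.21 (SE) and 0.04 ± 0.34 (SE).

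Other genes of mitochondrial gene expression and of energy metabolism were measured on the same arrays. Of 33 partners (factors of mitochondrial transcription, translation, tRNA charging, import and protein quality control), none of 27 tested at day 10 and none of 10 at day 14 passed, with medians of 0.04 and -0.13. At an unadjusted limma p under 0.05 there was 1 of 27 at day 10, against 4.47% of everything tested, and 0 of 10 at day 14, against 3.47%. The 1 was mRRF2, a factor that splits mitochondrial ribosomes after translation, with -0.35 ± 0.13 (SE) at day 10 and a limma adjusted p of 0.992. It had -0.27 at day 14. The next lowest p-values were those of the protease Lon (-0.24) and the membrane insertase OXA1L (-0.23) at day 10, and of Lon (-0.26) and the transcription factor Ets97D (-0.27) at day 14.

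Oxidative phosphorylation subunits, which include the nuclear-encoded partners of the proteins this ribosome makes, had a median of -0.01 at day 10 with 17 of 35 above 0. At day 14 their median was -0.08 with 6 of 26 above 0. Cytosolic ribosomal proteins had medians of -0.09 at day 10 (6 of 20 above 0) and -0.12 at day 14 (3 of 18 above 0). At day 14 the mitochondrial ribosomal genes had 13 of 23 above 0. Of all genes and features tested, 55.4% were above 0 at day 10 and 51.0% at day 14. Cytosolic medians of single day 14 arrays were 0.06 and 0.04 with treated RNA in Cy5, and -0.23 and -0.15 in Cy3. None of the genes in these groups passed the threshold on either day (limma). At an unadjusted limma p under 0.05 there was 1 of 35 oxidative phosphorylation subunits at day 10, against 4.47% of everything tested. At day 14 there was 1 of 18 cytosolic ribosomal proteins, against 3.47%. The difference between the groups was not tested.

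**Figure D5:**
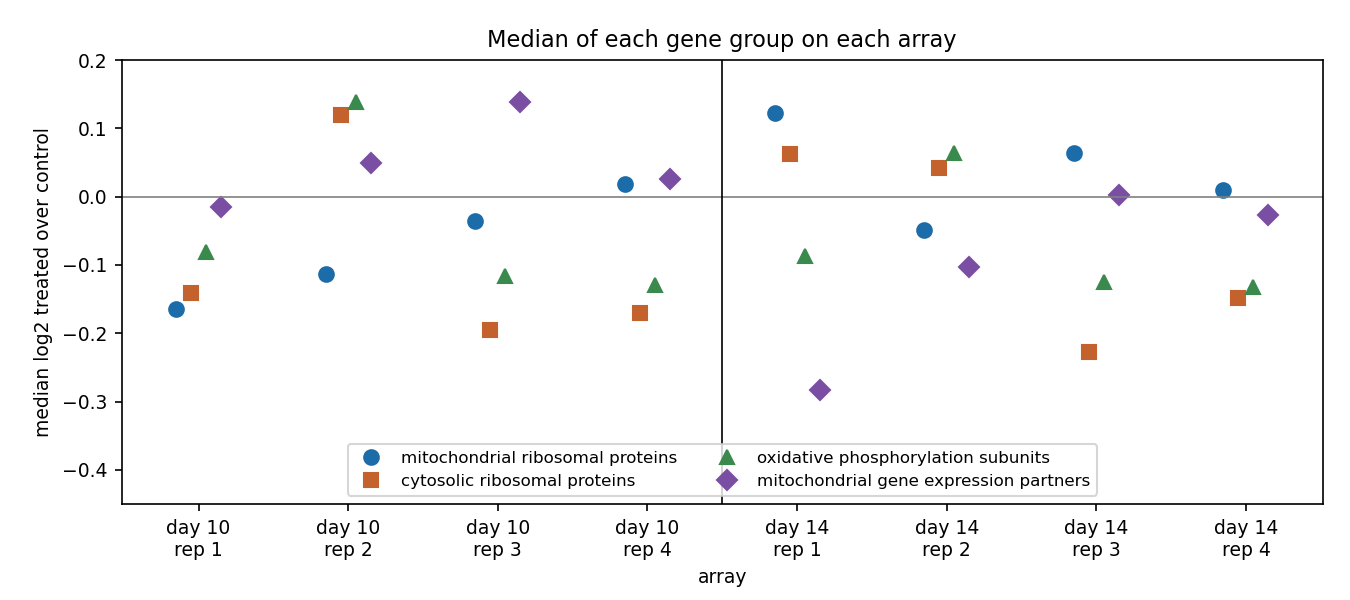
Median log2 ratio of treated over control on each array for the mitochondrial ribosomal genes, cytosolic ribosomal genes, oxidative phosphorylation subunits and partners of mitochondrial gene expression. Medians of the mitochondrial ribosomal genes run from -0.16 to 0.12, and the order of the groups changes from array to array.

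The labelled tissue was checked through markers with a value on each array, since the table holds ratios and no levels. Photoreceptor markers had values for 8 to 13 of 13 genes, neuron markers for 3 to 6 of 6, glia markers for 4 to 8 of 8, muscle markers for 5 to 9 of 9, head fat body markers for 6 to 12 of 14, and testis and accessory gland markers for 1 to 5 of 7. Array medians ran from -0.83 to 0.17 for fat body markers and from -0.37 to 0.04 for muscle markers. Glia markers had medians below 0 on all 8 arrays, from -0.27 to -0.08. The medians ran from -0.32 to 0.25 for photoreceptor markers, from -0.15 to 0.25 for neuron markers and from -0.68 to 0.33 for testis and accessory gland markers. Their part in the values above was not tested, and in whole heads fewer cells of a type and less RNA per cell cannot be told apart.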

How the data were processed

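Each array compared amplified, dye-labelled cRNA from a treated and a control pool of heads. Per the labels, spots were quantified in GenePix Pro 6.0, normalized by ratio in Acuity 4.0 and filtered on intensity, saturation and uniformity, which leaves blanks. The deposited values are log2 ratios. Base 2 was read from the values, while neither the labels nor the header name the numerator. Here each array was centred on its median, swapped arrays were turned, and features of 1 gene were averaged. The platform annotation gave 15116 of 27648 features 1 symbol, and 14894 matched the RefSeq gene table (Release 6), with no change to any of the 48 symbols. Means per day were estimated over the 8 arrays together by the moderated test of limma 3.58.1 (R 4.3.3). A gene or feature needed values on at least 3 of 4 arrays of the day, and p-values were adjusted over everything tested by Benjamini-Hochberg, with a threshold of 0.05. Errors are standard errors of that fit unless named SD, and 95% intervals are its own. The genes and lists were chosen with earlier results of these data known, and the classes by origin were assigned later, from general knowledge of the proteins. Every tested gene is named with its mean, and array values are given in full for genes tested on both days among the 5 lowest p-values of a comparison and for mRpS34. The fit was tested on simulated data. Alternatives covered centring, sign, filters, dye, weights and left-out arrays. Array number limits the precision, and signal over background was not examined.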

Additional observations from a re-analysis of the deposited data

Results flagged for a closer look

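Of 42 sets of 4 array values (genes measured on all arrays of a day, group medians and subunit differences), 3 held an array far from the others at day 10, where chance alone gives about 1 in 20. mRpL40 was at -0.47 on replicate 1 of day 10, with the other arrays between -0.10 and -0.04. mRpS33 was at 0.49 on replicate 4, with the others between -0.31 and -0.24. mRpS35 was at 0.34 on the same array, with the others between -0.06 and -0.03. The mean of mRpL50 was below 0 on every array of day 10 and above 0 on each of the 3 measured arrays of day 14, a difference of 0.33 that did not pass the test (limma adjusted p of 1.00 after rounding). The day 14 values came from 1 of its 2 clones, and that clone alone read 0.33 and 0.22 on replicates 1 and 2 of day 10, with a difference between the days of 0.08.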

How the results depend on the processing

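Under each of 25 alternatives for either day and each of 24 between the days (no fit of each day alone gives that difference), leaving out each array in turn included, 0 of the genes passed the threshold, as under the settings reported. The lowest adjusted p of any gene was 0.0741, for mRpL54 at day 10 without turning the swapped arrays. The median at day 10, -0.04, was -0.31 with arrays as deposited, when the median over all genes and features was -0.25, and 0.12 from the Cy3 arrays alone. The median at day 14, 0.05, was -0.034 without turning, and from -0.025 to 0.134 with single arrays left out, the ends being without replicate 3 and without replicate 2. The difference of large minus small subunit at day 14, 0.11, was -0.13 without turning and -0.024 by position. The cause was not tested. For mRpL50, the clone measured on both days, an alternative chosen after seeing the data, gave 0.10 at day 10 in place of -0.15 and a difference of 0.08 in place of 0.33. Means changed sign without turning in 14 of 31 genes at day 10, 15 of 23 at day 14 and 6 of 20 for the difference between days, and after removal of medians by position in 10, 10 and 3. The fit with the replicate number as a block also had 0 genes past the threshold, on 22, 23 and 20 genes. Correlations of same-numbered arrays of the 2 days, which share the dye orientation, were 0.03 to 0.37. Replicate 1 of day 10 correlated best with replicate 2 of day 14 (0.29), also of the same orientation. Pairs of opposite orientation gave -0.38 to 0.01, so replicate number and dye cannot be told apart in these values. Ratios give no signal over background, and missing spots leave 14 genes untested.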
